A study of Mus musculus with 9 samples.

Results

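The genes described here are 10 ion channel genes of mouse microglia, picked by symbol from the 18571 genes of the deposited table. They are 5 potassium channel genes (Kcnk13, Kcnk6, Kcna3, Kcnn4 and Kcnj2), 3 cation channel genes of the transient receptor potential (TRP) family (Trpm2, Trpm7 and Trpv2), the mitochondrial calcium uniporter pore Mcu, and Lrrc8a, a subunit of the volume-regulated anion channel. The rule goes by symbol and uses no measured value, although the list was drawn up with results of these data known. All 10 were among the 14696 genes with enough counts to be tested. Poly-A RNA was sequenced from cells that immunopanning with a CD45 antibody had taken from the cortex and hippocampus of 9-month-old mice on a C57BL6/j background. The 3 groups, each of 3 libraries, were wild type mice (WT), APP/PS1 mice, and mice called cKO here (Cx43 cKO in the plots), which carried APP/PS1, Cx3cr1-CreER and Cx43-flox/flox together. Cx3cr1-CreER is a tamoxifen-inducible Cre under the promoter of a fractalkine receptor gene that microglia and other mononuclear phagocytes use, and Cx43 is the gap junction protein connexin 43 made from Gja1. The labels give the same tamoxifen course to every sample, by gavage at 0.1 mg per g for 5 days at 8 months of age.

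A cell's potassium channels set its membrane potential and so the force that drives calcium in. Microglia use resting two-pore potassium channels to hold that potential, and voltage- and calcium-gated potassium channels appear as the cells become reactive. TRP channels let cations in when cells meet oxidants, heat, stretch or signalling lipids, the uniporter carries calcium from the cytosol into mitochondria, and volume-regulated anion channels release chloride and small solutes when cells swell.

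Library totals ran from 18907681 to 19565354 estimated counts, and all levels below in CPM (counts scaled to library size, per the TMM factors of edgeR) can be compared between groups but not between genes. The log2 changes and their standard errors (SE) come from edgeR, p-values are adjusted by the Benjamini-Hochberg method over the 14696 genes, and a gene is called higher or lower at an adjusted p under 0.05. Gja1 was at 31.6 to 35.1 CPM in the WT libraries, 37.0 to 42.5 in APP/PS1 and 25.3 to 28.1 in cKO, so its messenger fell from APP/PS1 to cKO (log2 change -0.56, edgeR adjusted p = 7.95e-09) and was still present. The 8 astrocyte markers fell as well, from sums of 653 to 673 CPM in APP/PS1 to 501 to 512 in cKO, with 7 called lower. The part of astrocyte RNA in the Gja1 difference was not tested. Cx3cr1, the gene that carries the Cre, was at 1186 to 1231 CPM in cKO and at 2223 to 2288 in the other libraries. The cKO libraries also held 0 to 2 counts of the Y-linked gene Ddx3y against 4137 to 4538 in every other library, so Gja1 deletion, the Cre allele and sex cannot be told apart in either comparison with cKO. The labels do not say that the libraries of a group came from separate animals, and the p-values measure the spread between these libraries, which may be technical. Microglial markers were abundant in all 9 libraries (10 of 10 detected) but also moved between groups. They summed to 19203 to 19524 CPM in the WT libraries, 23922 to 24375 in APP/PS1 and 22471 to 22828 in cKO. Of the 10, 7 were called higher and 3 lower in APP/PS1 against WT, and 3 higher and 5 lower in cKO against APP/PS1. Markers of other blood cells were present too and moved between groups: 12 neutrophil genes summed to 3495 to 3529 CPM in the WT libraries, 1472 to 1540 in APP/PS1 and 9958 to 10091 in cKO. In the same order of groups, 6 erythroid markers summed to 1185 to 1240, 248 to 275 and 95.2 to 105 CPM. The 6 markers of border macrophages summed to 512 to 526, 386 to 400 and 337 to 355 CPM. In these bulk samples fewer cells of a type and less RNA per cell cannot be told apart.

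The 10 genes spanned a wide range of levels. On the deposited TPM scale, which corrects for transcript length and so allows genes to be compared, Kcnk6 was the highest member in WT at 88.2 ± 1.63 (SD, n = 3), followed by Trpm2 at 75.7 ± 1.62 and Trpv2 at 57.2 ± 1.24. Trpm7 (39.6), Lrrc8a (35.5), Kcnj2 (30.3) and Kcnk13 (21.8) formed the middle of the mean TPM order. Mcu (8.46), Kcnn4 (5.80) and Kcna3 (4.77) were the lowest, and the TPM values of the last pair overlapped while every other neighbouring pair in WT was separate. In APP/PS1 and in cKO the same 3 genes led, the TPM values of Trpm7, Lrrc8a and Kcnj2 ran into each other, and Kcna3 stood above both Mcu and Kcnn4. Among the tested genes the mean TPM of Kcna3 was at percentile 28.1 in WT, 42.4 in APP/PS1 and 53.2 in cKO. For the other 9 members the percentile differed less between groups, with Mcu ranging from 31.0 to 43.7. Kcnk13, Trpm2 and Mcu overlap noncoding RefSeq genes that are not in the table, and no source states that counting used strand, so reads of these genes may be counted together.

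**Figure D1:**
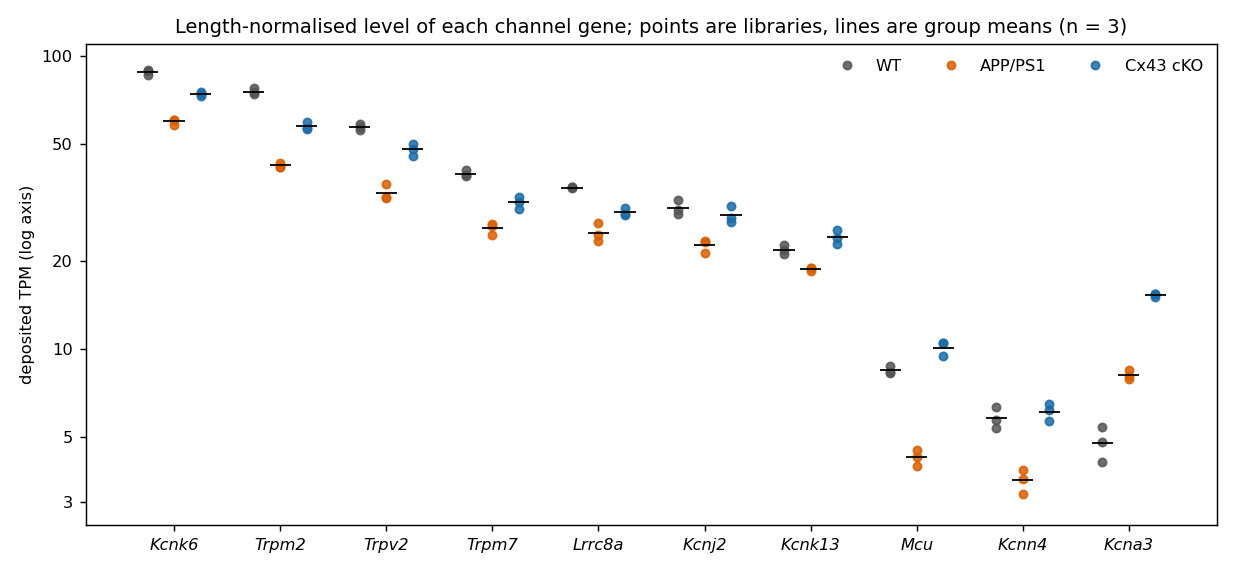
Deposited TPM (log axis) of the 10 channel genes, ordered by their mean in WT, with 1 point per library and a line at each group mean (n = 3). Kcnk6 is highest in all 3 groups, and Kcna3 goes from the lowest member in WT (4.77) to 15.3 in cKO, above Mcu and Kcnn4.

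Of the potassium channels, Kcna3 differed most between groups. It encodes Kv1.3, a voltage-gated channel known from activated T cells and reactive microglia, and lies at chr3:107036162-107038129 (GRCm38.p6, RefSeq). Kcna3 was at 4.39, 3.35 and 3.92 CPM in the 3 WT libraries, 8.63, 9.04 and 8.41 in APP/PS1, and 14.4, 14.4 and 14.1 in cKO, from 68 to 88, 156 to 168 and 270 to 275 counts. The 3 groups did not overlap, every APP/PS1 library was above every WT library, and every cKO library was above both. Kcna3 rose 2.24-fold in APP/PS1 against WT (log2 change 1.16, SE 0.11, edgeR adjusted p = 6.39e-10). It was a further 1.64-fold higher in cKO than in APP/PS1 (log2 change 0.71, SE 0.09, edgeR adjusted p = 8.87e-08), and 3.67-fold higher than in WT. Of 26 settings of the processing, none ended or reversed any of these Kcna3 calls, although on uncentred TPM the log2 change in APP/PS1 was 0.67. Markers of T and NK cells, in which Kv1.3 is also known, summed to 23.0 to 24.4 CPM in the WT libraries, 38.5 to 40.6 in APP/PS1 and 26.2 to 28.8 in cKO, an order that differs from that of Kcna3. The T cell gene Cd3e, one of that list, had the order of Kcna3, at 4.02 ± 0.48, 5.09 ± 0.73 and 5.98 ± 0.33 CPM (SD, n = 3). In cKO against APP/PS1, 4 genes of that list were called lower and 0 higher, so the rise of Cd3e there was not called. B cell markers (4 of 5 in the table) summed to 25.0 to 27.2, 9.61 to 11.1 and 17.9 to 18.6 CPM, also in another order. The 10 reference genes of disease-associated microglia, such as Cst7 and Itgax, summed to 7683 to 8016 CPM in the WT libraries, 22645 to 24017 in APP/PS1 and 23084 to 24263 in cKO. All 10 were called higher in APP/PS1 than in WT, as Kcna3 was, but in cKO against APP/PS1 their sums overlapped and 3 were called higher and 5 lower.

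Because Kcna3 moved most, the bases upstream of its start are shown. In RefSeq (GRCm38.p6) this window is chr3:107035912-107036161 on the plus strand, 250 bases ending just before the start site.
Kcna3: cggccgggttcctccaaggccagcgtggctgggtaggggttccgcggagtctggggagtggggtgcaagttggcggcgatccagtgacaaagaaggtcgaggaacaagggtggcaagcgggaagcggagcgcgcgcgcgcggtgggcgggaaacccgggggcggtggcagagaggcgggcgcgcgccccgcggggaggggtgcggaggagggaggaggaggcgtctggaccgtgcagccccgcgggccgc
The window is 74.4% G and C and holds 31 CpG sites, against medians of 52.4% and 6 over all 32851 RefSeq promoter windows of this length. It was searched on both strands, as were those of the other members, for GAGGAAGT (a PU.1 motif), CACGTG (an E-box), TGANTCA (AP-1) and TGACGTCA (CRE). None of these letters occurred in the Kcna3 window, which says nothing about binding. A window was found for 9 of the 10 members, all but Kcnk6.

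The 2 genes of two-pore potassium channels, which carry resting current, differed in direction in APP/PS1 against WT, and both were called higher in cKO than in APP/PS1. Kcnk13 (chr12:99963149-100062682) encodes THIK-1, the main resting potassium conductance of ramified microglia and a regulator of their surveillance and of interleukin-1 beta release. Kcnk13 was at 29.3, 28.6 and 30.3 CPM in the WT libraries, 32.8, 33.4 and 33.5 in APP/PS1, and 36.9, 39.3 and 35.1 in cKO. All 3 groups were separate, in the same order as for Kcna3. Kcnk13 exceeded its WT level in APP/PS1 (log2 change 0.18, SE 0.05, edgeR adjusted p = 0.00617) and was higher still in cKO, both against APP/PS1 (0.16, SE 0.05, adjusted p = 0.0116) and against WT (0.34, SE 0.05, adjusted p = 6.23e-06). The first of these depends on scaling: with library totals the Kcnk13 log2 change in APP/PS1 was 0.04 (adjusted p = 0.533), and on uncentred TPM it was -0.20 (adjusted p = 0.00258), below 0 like the -0.55 of Kcnk6 on that scale. Without cKO replicate 2 the difference between cKO and APP/PS1 was 0.12 with an adjusted p of 0.0932, and in the DESeq2 Wald test it was 0.17 with an adjusted p of 0.0662. With length offsets that Kcnk13 difference was 0.11 (adjusted p = 0.0839, and 0.0470 with the replicate block added).

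Kcnk6 (chr7:29221928-29232522) encodes TWIK-2, through which potassium leaves macrophages before the NLRP3 inflammasome assembles. Kcnk6 was at 152, 148 and 154 CPM in the WT libraries, 137, 131 and 136 in APP/PS1, and 148, 147 and 144 in cKO. WT was the highest group, APP/PS1 the lowest, and no libraries overlapped. The log2 change was -0.17 in APP/PS1 against WT (SE 0.03, edgeR adjusted p = 8.99e-05) and 0.12 in cKO against APP/PS1 (SE 0.03, adjusted p = 0.00398). Between cKO and WT it was -0.05 (SE 0.03) and did not pass the test (adjusted p = 0.212). With offsets for transcript length both called Kcnk6 values shrank to -0.06 and 0.06 and missed the threshold (adjusted p = 0.124 and 0.121), and with the replicate block added to these offsets both passed at the same size (adjusted p = 0.0314 and 0.0316).

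Kcnn4 and Kcnj2 were both lowest in APP/PS1 and highest in cKO in mean CPM. Kcnn4 (chr7:24369826-24385212) encodes KCa3.1, a calcium-activated potassium channel of blood and immune cells. Kcnn4 was at 4.74, 4.63 and 5.19 CPM in the WT libraries, 3.50, 3.87 and 4.15 in APP/PS1, and 5.93, 6.28 and 5.37 in cKO, from 64 to 120 counts. The groups were separate in each pair. Kcnn4 was 1.52-fold higher in cKO than in APP/PS1 (log2 change 0.61, SE 0.12, edgeR adjusted p = 0.000168), and its level in APP/PS1 was lower than in WT (-0.34, SE 0.13, adjusted p = 0.0248). Against WT the cKO value of Kcnn4 was 0.27 (SE 0.12, adjusted p = 0.0602). The lower level of Kcnn4 in APP/PS1 missed the threshold without WT replicate 3 (-0.29, adjusted p = 0.0908), without APP/PS1 replicate 1 (-0.28, adjusted p = 0.0999) and in the DESeq2 Wald test (-0.32, adjusted p = 0.186), and leaving out cKO replicate 3 brought the comparison with WT past it (0.33, adjusted p = 0.0415), as did DESeq2 size factors (0.30, adjusted p = 0.0402) and centred TPM (0.23, adjusted p = 0.0363).

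Kcnj2 (chr11:111066164-111076825) encodes Kir2.1, a strong inward rectifier that cultured microglia are known for. Kcnj2 was at 73.9, 66.1 and 68.5 CPM in the WT libraries, 70.4, 64.1 and 69.8 in APP/PS1, and 80.5, 71.4 and 73.3 in cKO. WT overlapped both other groups, while the lowest cKO library lay just above the highest APP/PS1 library. Kcnj2 was 10.3% higher in cKO than in APP/PS1 (log2 change 0.14, SE 0.05, edgeR adjusted p = 0.0228), and its values against WT were -0.03 in APP/PS1 (SE 0.05, adjusted p = 0.647) and 0.11 in cKO (SE 0.05, adjusted p = 0.0726). The called Kcnj2 difference missed the threshold without APP/PS1 replicate 2 (0.10, adjusted p = 0.144) or without cKO replicate 1 (0.09, adjusted p = 0.155), with length offsets (0.10, adjusted p = 0.104, and 0.0109 with the block added) and on centred TPM (0.11, adjusted p = 0.142). Against WT, leaving out WT replicate 1 or cKO replicate 2 brought Kcnj2 in cKO past it (0.16 and 0.15, adjusted p = 0.0166 and 0.0343). A block for the replicate number did so as well (0.11, edgeR adjusted p = 0.00264), and every cKO library was above the WT library of its own number. It also passed with DESeq2 size factors (0.14, adjusted p = 0.0290) and with length offsets (0.17, adjusted p = 0.00529), but was 0.0038 on library totals. The Kcnj2 value in APP/PS1 against WT depends on scaling: it was called lower on library totals (-0.17, adjusted p = 0.00725), on uncentred TPM (-0.41, adjusted p = 7.35e-05) and on FPKM with a pseudocount of 1 or 0.1 (-0.15 and -0.17, adjusted p = 0.0348 and 0.0342), and higher with length offsets and the block together (0.074, adjusted p = 0.0482).

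**Figure D2:**
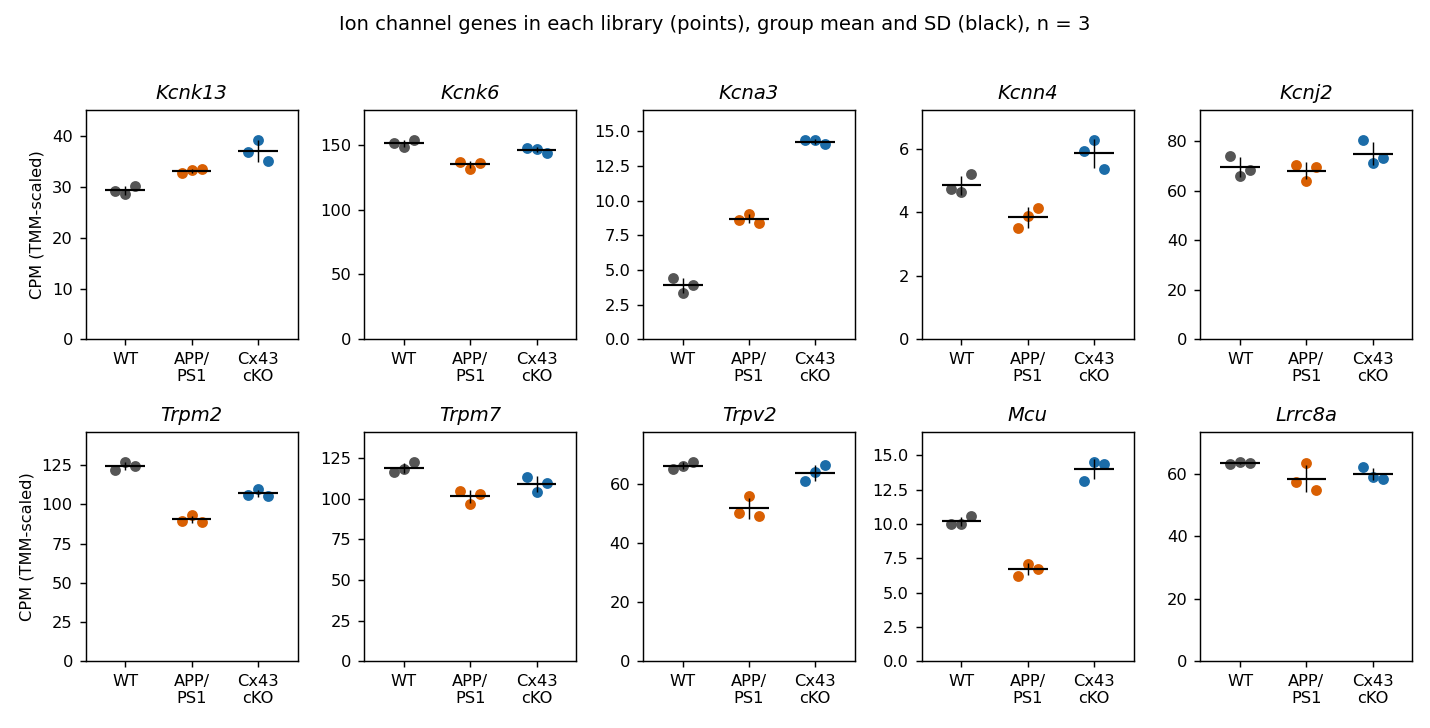
TMM-scaled CPM of each channel gene in every library, with the group mean and SD in black (n = 3) and each axis starting at 0. Kcna3 and Kcnk13 are lowest in WT, all other members have their lowest mean in APP/PS1, and Mcu, Kcnn4, Kcnj2, Kcna3 and Kcnk13 have their highest mean in cKO.

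The 3 TRP channel genes all had their highest mean in WT and their lowest in APP/PS1. Trpm2 (chr10:77907722-77969909) encodes a calcium-permeable channel opened by ADP-ribose and oxidative stress. Trpm2 was at 122, 127 and 124 CPM in the WT libraries, 89.3, 93.2 and 88.8 in APP/PS1, and 106, 109.5 and 105 in cKO. No groups overlapped, and cKO stood between the others. Trpm2 fell by 27.3% in APP/PS1 against WT (log2 change -0.46, SE 0.04, edgeR adjusted p = 1.89e-11), was 18.3% higher in cKO than in APP/PS1 (0.24, SE 0.04, adjusted p = 2.96e-06), and fell by 14.0% in cKO against WT (-0.22, SE 0.04, adjusted p = 1.05e-05). These 3 calls passed in each of the 26 settings except the one that asks for a change of at least 1.5-fold.

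Trpm7 (chr2:126791558-126876261) encodes a magnesium- and calcium-permeable channel fused to a kinase. Trpm7 was at 117, 118 and 122 CPM in the WT libraries, 105, 96.7 and 103 in APP/PS1, and 113, 104 and 109.5 in cKO. WT was above both other groups, and the 2 groups that carry APP/PS1 overlapped. Its log2 change was -0.23 in APP/PS1 against WT (SE 0.04, edgeR adjusted p = 1.62e-05), 0.10 in cKO against APP/PS1 (SE 0.04, adjusted p = 0.0311) and -0.13 in cKO against WT (SE 0.04, adjusted p = 0.00910). The middle Trpm7 call was lost without APP/PS1 replicate 2 (0.07, adjusted p = 0.204), cKO replicate 1 (0.07, adjusted p = 0.149) or cKO replicate 3 (0.10, adjusted p = 0.0804), and the last without WT replicate 3 (-0.11, adjusted p = 0.0609) or cKO replicate 2 (-0.09, adjusted p = 0.0815). The DESeq2 Wald test called neither (0.11 and -0.10, adjusted p = 0.0638 and 0.102). Length offsets ended both (0.08 and -0.07, adjusted p = 0.0966 and 0.146), and with the replicate block added both passed (adjusted p = 0.0213 and 0.0347). On centred TPM the middle value was 0.07 (adjusted p = 0.205).

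Trpv2 (chr11:62574486-62600305) encodes a channel that macrophages use during phagocytosis. Trpv2 was at 65.1, 66.0 and 67.3 CPM in the WT libraries, 50.1, 55.8 and 49.3 in APP/PS1, and 60.8, 64.0 and 66.3 in cKO. APP/PS1 was below both other groups without overlap, and WT and cKO ran into each other. Trpv2 fell by 21.7% in APP/PS1 against WT (log2 change -0.35, SE 0.05, edgeR adjusted p = 5.29e-07) and was 23.1% higher in cKO than in APP/PS1 (0.30, SE 0.05, adjusted p = 8.74e-06). Between cKO and WT the value was -0.05 (SE 0.05, adjusted p = 0.368). The window before a Trpv2 start site (chr11:62574236-62574485, plus strand) is shown because Trpv2 was the only member whose windows held the PU.1 letters, in capitals here, at position -14 from the start. PU.1 is the transcription factor that macrophages and microglia depend on.
Trpv2: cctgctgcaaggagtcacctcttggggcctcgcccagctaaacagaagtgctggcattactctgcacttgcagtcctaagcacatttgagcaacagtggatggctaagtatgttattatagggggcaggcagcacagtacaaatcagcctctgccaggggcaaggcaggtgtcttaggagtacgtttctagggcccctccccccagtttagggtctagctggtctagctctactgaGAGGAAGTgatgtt
These letters occur in 2.44% of all such windows. Of the other members, the windows of Lrrc8a, Trpm7, Kcnn4 and Kcnj2 held an E-box, as do 6.02% of all windows, and that of Lrrc8a also held the CRE letters, found in 1.55%.

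The early-response genes that are known to rise while tissue is being dissociated were highest in WT too. Their 19 members summed to 29197 to 30828 CPM in the WT libraries, 23849 to 25167 in APP/PS1 and 24854 to 26165 in cKO, the same order of group means as for Trpm2, Trpm7, Trpv2, Kcnk6 and Lrrc8a. The B cell markers had this order too. Markers of erythroid cells, of border macrophages and of endothelial and mural cells were also highest in WT, but lowest in cKO. No other marker list was highest in WT. The part of the early-response genes, of the neutrophil markers or of the other marker lists in any channel gene's difference was not tested.

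Mcu (chr10:59446984-59617409) had the widest range of group means after Kcna3. Mcu was at 9.99, 10 and 10.6 CPM in the WT libraries, 6.23, 7.10 and 6.74 in APP/PS1, and 13.1, 14.5 and 14.3 in cKO, from 114 to 277 counts. All 3 groups were separate, with APP/PS1 lowest and cKO highest. Mcu fell by 34.3% in APP/PS1 against WT (log2 change -0.61, SE 0.09, edgeR adjusted p = 2.85e-06). It was 2.09-fold higher in cKO than in APP/PS1 (1.06, SE 0.09, adjusted p = 7.92e-11) and 1.37-fold higher than in WT (0.46, SE 0.08, adjusted p = 3.24e-05). The neutrophil markers had the same order of group means in CPM as Mcu, Kcnn4 and Kcnj2. So did 7 monocyte markers, which summed to 389 to 403 CPM in the WT libraries, 91.7 to 105 in APP/PS1 and 714 to 736 in cKO. Neither Kcnj2 difference from WT was called, nor was that of Kcnn4 in cKO, and on TPM the Kcnj2 mean was highest in WT. All 12 neutrophil and all 7 monocyte markers were called lower in APP/PS1 than in WT and higher in cKO than in APP/PS1. The neutrophil gene Ly6g, for example, was at 8.12 ± 0.62 CPM in the WT libraries, 3.34 ± 0.11 in APP/PS1 and 23.5 ± 0.57 in cKO (SD, n = 3).

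Before a Mcu start site (chr10:59616693-59616942, minus strand) the AP-1 letters, shown in capitals, begin at position -81. AP-1 is the dimer made by Fos and Jun family proteins.
Mcu: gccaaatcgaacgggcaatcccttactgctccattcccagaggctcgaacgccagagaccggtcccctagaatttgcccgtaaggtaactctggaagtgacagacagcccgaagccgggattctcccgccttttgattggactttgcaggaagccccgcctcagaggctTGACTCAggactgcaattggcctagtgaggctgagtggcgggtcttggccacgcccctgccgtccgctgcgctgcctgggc
AP-1 letters occur in 6.75% of all windows, and no other member window held them. The Mcu window is 60.8% G and C with 15 CpG sites.

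**Figure D3:**
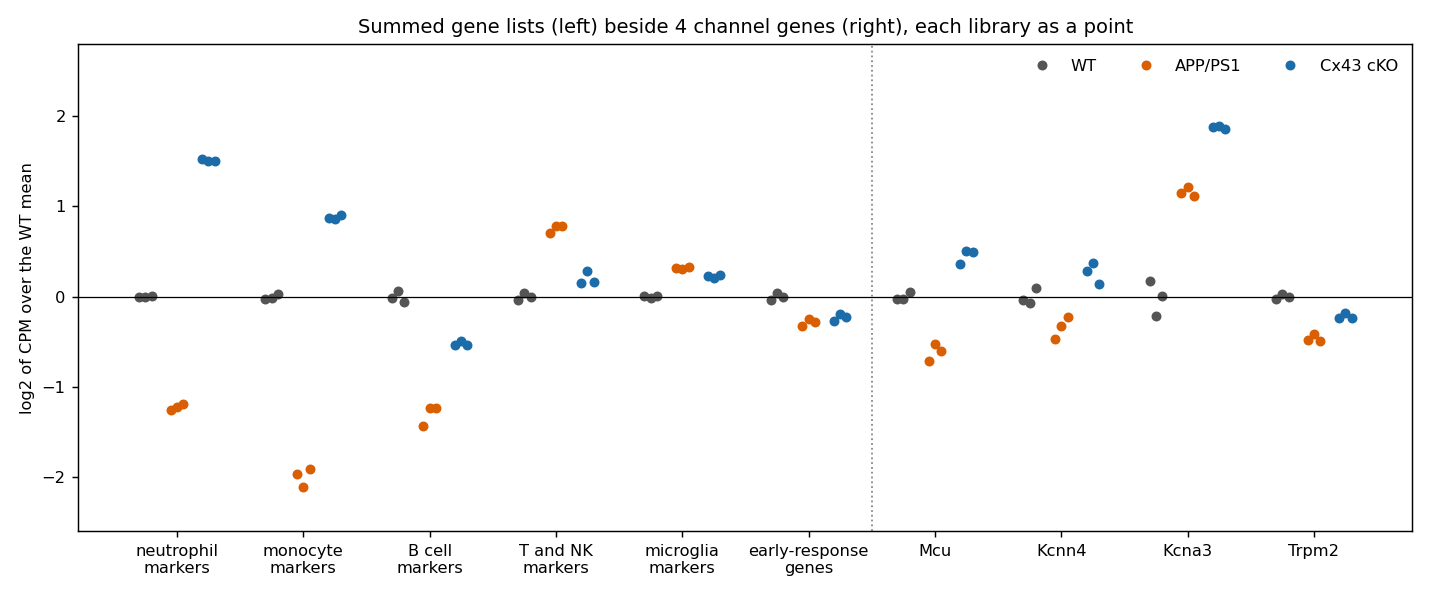
Log2 ratio of each library to the WT mean, for the summed CPM of 6 gene lists (left of the dotted line) and for 4 channel genes (right), with 1 point per library. Mcu and Kcnn4 are lowest in APP/PS1 and highest in cKO, as are the neutrophil and monocyte lists, whereas Kcna3 is lowest in WT and Trpm2 highest in WT.

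The partners of the uniporter did not all follow Mcu. Of 8 partners tested, 3 were called higher and 2 lower in APP/PS1 against WT, 2 higher and 3 lower in cKO against APP/PS1, and 3 higher and 1 lower in cKO against WT. Over all tested genes 59.0%, 55.0% and 47.7% were called in these comparisons, so these counts are near the background. Slc8b1, the mitochondrial sodium-calcium exchanger that takes calcium out, averaged 80.2, 63.3 and 76.5 CPM in WT, APP/PS1 and cKO. It fell in APP/PS1 against WT (log2 change -0.34, edgeR adjusted p = 8.37e-06) and was higher in cKO than in APP/PS1 (log2 change 0.27, edgeR adjusted p = 0.000164). Smdt1, which encodes EMRE, an essential regulator of the pore, went the other way, at 0.63 (adjusted p = 7.80e-09) and -0.51 (adjusted p = 2.88e-07) in these comparisons. With offsets for transcript length the Smdt1 values were 0.01 and -0.02 and neither passed (adjusted p = 0.953 and 0.822). Micu2, a calcium-sensing regulator of the pore, was higher than in WT in both groups that carry APP/PS1 (0.27 and 0.20, adjusted p = 2.89e-05 and 0.000965). On uncentred TPM, Micu2 in APP/PS1 was at -0.13 instead. Micu3, a related regulator known from neurons, was lower in cKO than in APP/PS1 (-0.39, adjusted p = 0.00514) and than in WT (-0.58, adjusted p = 7.30e-05). The first Micu3 value was -0.29 (adjusted p = 0.0518) without APP/PS1 replicate 2. Letm1, a mitochondrial inner membrane cation exchanger, was called at 0.12 in APP/PS1 against WT (adjusted p = 0.0308) and at -0.18 in cKO against APP/PS1 (adjusted p = 0.00359). The first Letm1 value was lost without any one of 4 libraries, WT replicates 2 and 3 and APP/PS1 replicates 1 and 3 (0.13, 0.08, 0.12 and 0.11), and it reversed on library totals (-0.01). Mcur1, a uniporter regulator, was called only in cKO against WT (0.15, adjusted p = 0.00385), and the dominant-negative subunit Mcub, at 3.13 to 3.56 CPM in the 3 group means, passed in no comparison.

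Lrrc8a (chr2:30237769-30263790) encodes SWELL1, the subunit without which volume-regulated anion channels do not work. Lrrc8a was at 63.2, 63.7 and 63.5 CPM in the WT libraries, 57.3, 63.3 and 54.7 in APP/PS1, and 62.0, 59.1 and 58.5 in cKO. The APP/PS1 libraries reached into both other ranges, and APP/PS1 replicate 2 was close to WT. Lrrc8a was called lower in APP/PS1 than in WT (log2 change -0.12, SE 0.05, edgeR adjusted p = 0.0364), and the values of 0.03 in cKO against APP/PS1 (SE 0.05, adjusted p = 0.577) and -0.08 in cKO against WT (SE 0.05, adjusted p = 0.152) did not pass. On uncentred TPM the first of these Lrrc8a values was 0.22 and was called (limma adjusted p = 0.00271). The single Lrrc8a call was lost without any one of 5 of the 6 libraries compared, all but APP/PS1 replicate 2: without WT replicate 1, 2 or 3 (-0.12, adjusted p = 0.0563, 0.0779 and 0.0768), without APP/PS1 replicate 1 (-0.11, adjusted p = 0.0887) and without APP/PS1 replicate 3 (-0.07, adjusted p = 0.230). It was also lost in the DESeq2 Wald test (-0.10, adjusted p = 0.199), with DESeq2 size factors (-0.10, adjusted p = 0.0828), on centred TPM (-0.12, adjusted p = 0.0630) and with only the 2 groups in the fit (-0.08, adjusted p = 0.153). Offsets for transcript length brought it to -0.01 (adjusted p = 0.862, and 0.811 with the replicate block added).

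The other LRRC8 subunits assemble with Lrrc8a and set which solutes pass. Of 4, Lrrc8e reached at most 11 counts in a library and was not tested, and the other 3 were all called in APP/PS1 against WT, 2 higher and 1 lower, in a comparison that called 59.0% of all tested genes. Lrrc8d, known for passing larger organic solutes, was at 70.3 to 72.7 CPM in the WT libraries, 74.8 to 78.9 in APP/PS1 and 91.1 to 96.1 in cKO. The 3 Lrrc8d ranges were separate. Lrrc8d was higher in cKO than in APP/PS1 (log2 change 0.30, edgeR adjusted p = 3.47e-07) and than in WT (0.39, adjusted p = 3.50e-09). In APP/PS1 against WT its value was 0.09 (adjusted p = 0.0437), which missed the threshold when any one of 5 libraries was left out (0.07 to 0.10) and was -0.04 on library totals. Lrrc8b was higher than in WT in APP/PS1 (0.19, adjusted p = 0.0152) and in cKO (0.23, adjusted p = 0.00481), and Lrrc8c was lower in APP/PS1 than in WT (-0.23, adjusted p = 0.00488). The Lrrc8b call in APP/PS1 was lost without WT replicate 1 (0.13, adjusted p = 0.114) or APP/PS1 replicate 1 (0.17, adjusted p = 0.0501), and on uncentred TPM it was -0.19. Library totals ended the calls of Micu2, Mcur1 and Lrrc8b in cKO against WT (0.09, 0.04 and 0.12), and the DESeq2 Wald test that of Lrrc8c in APP/PS1 against WT (-0.21, adjusted p = 0.0771). Length offsets also ended this Lrrc8c call (-0.12, adjusted p = 0.130, and 0.0845 with the replicate block added). The DESeq2 Wald test called neither Lrrc8b nor Lrrc8d in APP/PS1 against WT (0.21 and 0.11, adjusted p = 0.0625 and 0.0692).

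Put together by comparison, 9 of the 10 channel genes were called in APP/PS1 against WT, 2 higher (Kcna3 and Kcnk13) and 7 lower, with Kcnj2 not called. At the same threshold 59.0% of all tested genes were called, 26.9% higher and 32.0% lower. The median log2 change of the 10 was -0.20, against -0.04 for all tested genes. Of the 10, 8 had groups without overlap, against 63.5% of all genes, and 2 (Kcna3 and Mcu) were called with at least a 1.5-fold change, against 19.3%. How many genes lie on either side of 0 depends on the scaling: edgeR with TMM called 3960 genes higher and 4710 lower, edgeR with library totals 2878 and 6887, and limma on TPM 1669 and 9680. The median of all genes, at -0.04 with TMM, was -0.35 on TPM and -0.17 on library totals. Relative to the median gene of each library, on TPM the log2 change of all members but Kcnj2 and Lrrc8a was called, in the directions given above.

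In cKO against APP/PS1 all 10 channel genes had higher values and 9 passed the test, with Lrrc8a not called. Of all tested genes 55.0% were called in this comparison, 27.3% higher and 27.7% lower. The median log2 change of the 10 was 0.20, against -0.01 for all tested genes. Groups did not overlap for 8 of the 10 and for 59.7% of all genes, and 3 members (Mcu, Kcna3 and Kcnn4) were called with at least a 1.5-fold change, against 17.5%. Each of the 9 called genes kept its direction in every one of the 26 settings. Limma on TPM called 6843 genes higher and 2242 lower here, against 4009 and 4076 with edgeR. The APP/PS1 libraries enter both of these comparisons, so the pair of values of a gene is not independent.

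In cKO against WT 5 of the 10 were called, Kcna3, Mcu and Kcnk13 higher and Trpm2 and Trpm7 lower. Of all tested genes 47.7% were called, a share near that of the members. The median log2 change of the 10 was 0.03, against -0.01 for all tested genes. Groups did not overlap for 8 members and for 54.6% of all genes, and Kcna3 alone was called with at least a 1.5-fold change, against 12.8%. With library totals 8 members were called, as Kcnk6, Trpv2 and Lrrc8a were then lower (log2 change -0.16, -0.16 and -0.19), and over all genes 2448 were higher and 5603 lower, against 3635 and 3375 with TMM. An exact two-sided permutation test of a single gene with 3 libraries against 3 cannot give a p below 0.1.

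**Figure D4:**
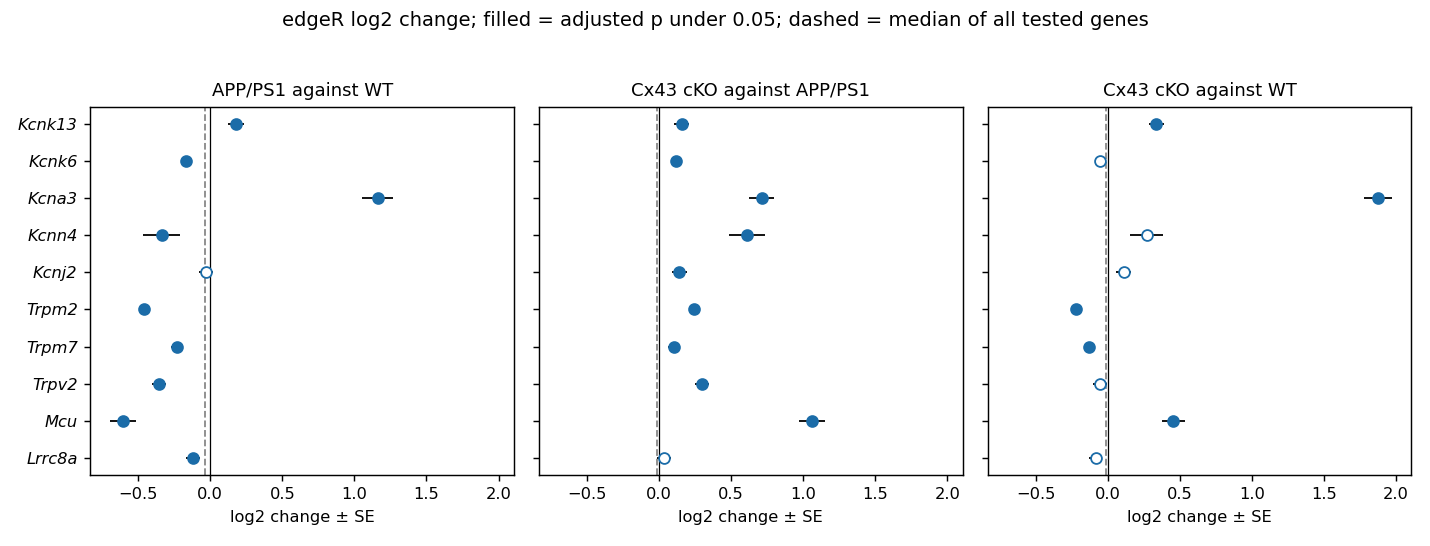
Log2 change ± SE (edgeR, 3 libraries a group) of the channel genes in the 3 comparisons, filled where the adjusted p is under 0.05, with a dashed line at the median of all 14696 tested genes. In the middle panel all 10 values are above 0, from 0.03 for Lrrc8a to 1.06 for Mcu.

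**Figure D5:**
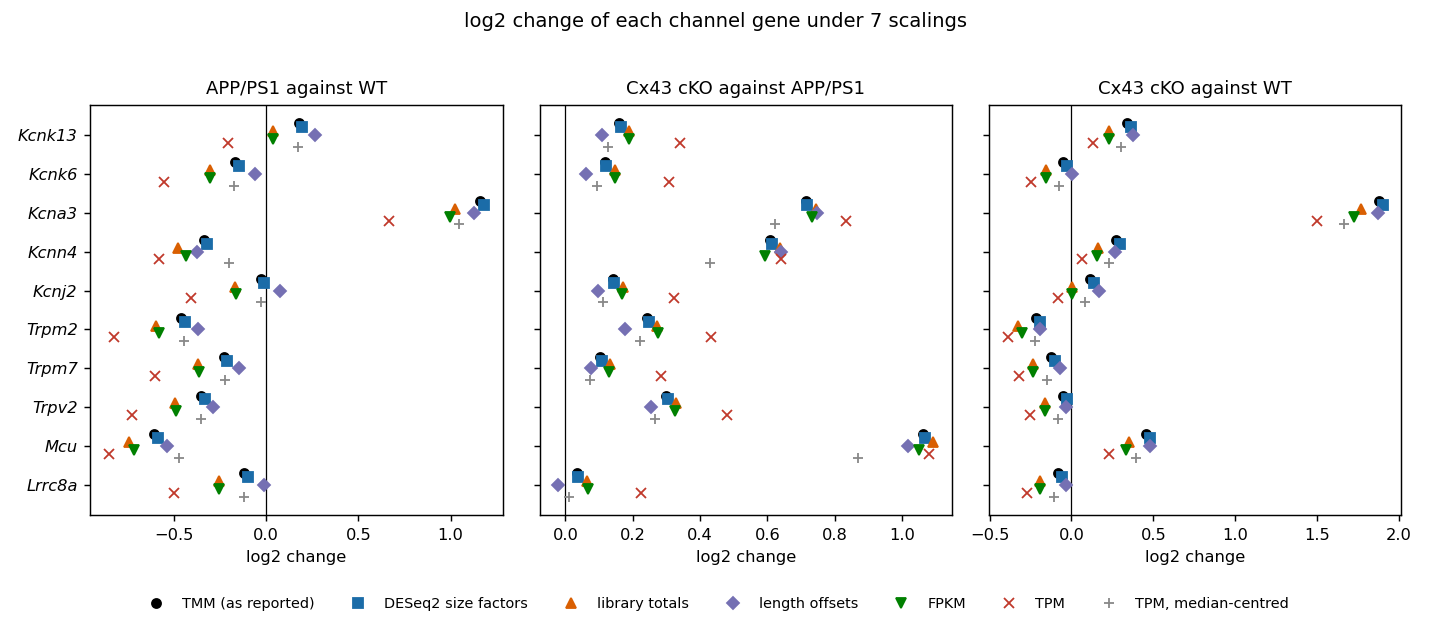
Log2 change of each channel gene under 7 scalings of the same libraries, in the 3 comparisons. In APP/PS1 against WT the uncentred TPM values (crosses) lie below the others for most members, and only Kcna3 stays above 0 there, at 0.67.

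The other potassium channel genes, 47 of 55 tested, were called higher 7 times and lower 13 times in APP/PS1 against WT, 7 and 20 times in cKO against APP/PS1, and 8 and 19 times in cKO against WT. Of all tested genes 59.0%, 55.0% and 47.7% were called in either direction, and 32.0%, 27.7% and 23.0% of all tested genes were called lower. The median log2 change of the list was -0.09, -0.30 and -0.29 in this order, against -0.04, -0.01 and -0.01 for all tested genes. Kcnab2, a beta subunit that binds Kv1 channels such as Kv1.3, was at 22.3 to 24.2 CPM in the WT libraries, 13.4 to 13.8 in APP/PS1 and 26.8 to 27.0 in cKO. Kcnab2 was lower in APP/PS1 than in WT (log2 change -0.78, edgeR adjusted p = 3.55e-11) and 1.98-fold higher in cKO than in APP/PS1 (0.99, adjusted p = 2.83e-13). Kcnk9, which encodes the two-pore channel TASK-3, had the largest change of the list in APP/PS1, from 16 to 17 counts in the WT libraries to 151 to 180 in APP/PS1 and 96 to 141 in cKO. Its log2 change was 3.45 in APP/PS1 against WT (adjusted p = 2.09e-15) and -0.54 in cKO against APP/PS1 (adjusted p = 0.000419). Kcnh7, an ERG-type potassium channel, averaged 6.01, 4.46 and 9.41 CPM in WT, APP/PS1 and cKO, and had the largest change of the list in cKO against APP/PS1, at 2.11-fold higher (log2 change 1.08, adjusted p = 2.25e-08). Its lower value in APP/PS1 against WT (-0.43, adjusted p = 0.00564) was lost without APP/PS1 replicate 2 (-0.26, adjusted p = 0.0757), in the DESeq2 Wald test (-0.41, adjusted p = 0.0512) and on centred TPM (-0.02, adjusted p = 0.864). Kcnd1, an A-type voltage-gated channel, was lower in APP/PS1 (-0.56, adjusted p = 1.12e-08) and in cKO (-0.36, adjusted p = 1.38e-05) than in WT. Kcnj10, the inward rectifier Kir4.1 known from astrocytes, was lower in cKO than in APP/PS1 (-0.30, adjusted p = 1.04e-05; -0.09 and not called on uncentred TPM). The 8 astrocyte markers summed to 457 to 466 CPM in the WT libraries, 653 to 673 in APP/PS1 and 501 to 512 in cKO.

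Of the other TRP channel genes 16 of 23 were tested, and 5 were called higher and 3 lower in APP/PS1 against WT, 3 higher and 5 lower in cKO against APP/PS1, and 5 higher and 4 lower in cKO against WT. These counts lie near the shares of all tested genes called, 59.0%, 55.0% and 47.7%. Trpm1, known from retinal bipolar cells and pigment cells, had 0 to 4 counts in WT, 143 to 168 in APP/PS1 and 129 to 164 in cKO. It was called higher in both groups (edgeR adjusted p = 4.36e-16 and 1.24e-15), and its value between them was not called (adjusted p = 0.590). Trpm3, a heat- and steroid-gated channel, averaged 23.0, 36.2 and 27.0 CPM in the same order of groups. It rose 1.57-fold in APP/PS1 against WT (log2 change 0.65, adjusted p = 1.39e-10) and was lower in cKO than in APP/PS1 (-0.42, adjusted p = 3.52e-07). Trpm6, a close relative of Trpm7, was at 25 to 26, 26 to 36 and 92 to 111 counts, and was 3.19-fold higher in cKO than in APP/PS1 (1.67, adjusted p = 1.97e-09). Trpv4, opened by osmotic swelling, was lower than in WT both in APP/PS1 (-0.39, adjusted p = 9.34e-06) and in cKO (-0.57, adjusted p = 5.39e-08).

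Store-operated calcium entry refills calcium stores that the channels of the endoplasmic reticulum empty. Of its 11 genes, all tested, 5 were called in APP/PS1 against WT, all lower, 3 higher and 3 lower in cKO against APP/PS1, and 2 higher and 4 lower in cKO against WT. Of all tested genes 59.0%, 55.0% and 47.7% were called in these comparisons, 32.0% lower in the first, and the median log2 change of the 11 in the first was -0.19 against -0.04 for all. Stim1, the store calcium sensor, averaged 71.0, 54.1 and 66.5 CPM in the WT libraries, APP/PS1 and cKO, with log2 changes of -0.39 between WT and APP/PS1 (edgeR adjusted p = 1.83e-08) and 0.30 in cKO against APP/PS1 (adjusted p = 2.60e-06). Orai2, a pore subunit that Stim1 opens, had values of -0.19 (adjusted p = 4.20e-05) and 0.26 (adjusted p = 4.37e-07). Among the inositol trisphosphate receptors, Itpr3 was lower than in WT both in APP/PS1 (-0.49, adjusted p = 9.96e-10) and in cKO (-0.51, adjusted p = 6.66e-10), and so was Itpr2 (-0.22 and -0.21, adjusted p = 9.21e-07 and 3.51e-06). Ryr2, a ryanodine receptor with 33 to 110 counts a library, was lower in cKO than in APP/PS1 (-0.96, adjusted p = 5.02e-05).

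Of 17 proton, chloride, mechanosensitive and lysosomal channel genes, 6 were called higher and 5 lower in APP/PS1 against WT, 9 higher and 3 lower in cKO against APP/PS1, and 8 higher and 3 lower in cKO against WT, where 59.0%, 55.0% and 47.7% of all tested genes were called. Clic4, an intracellular chloride channel protein, averaged 352, 411 and 445 CPM, and rose in APP/PS1 against WT (log2 change 0.23, edgeR adjusted p = 4.26e-07), although uncentred TPM put it at -0.19. Hvcn1, the voltage-gated proton channel that microglia need for their oxidase, averaged 274, 300.1 and 317 CPM. Its values were 0.13 in APP/PS1 against WT (adjusted p = 0.000384; -0.0046 on library totals and -0.26 on uncentred TPM) and 0.08 in cKO against APP/PS1 (adjusted p = 0.0239). That second Hvcn1 call was lost without APP/PS1 replicate 1 or 3 (0.07 and 0.08) and without cKO replicate 2 or 3 (both 0.07). Length offsets brought it to 0.03 (adjusted p = 0.352), and it was not called with the replicate block added either. Ano10, of the anoctamin family, was 1.46-fold higher in cKO than in APP/PS1 (0.54, adjusted p = 2.69e-08), and Ostm1, the beta subunit of the lysosomal chloride-proton exchanger ClC-7, rose 1.39-fold in APP/PS1 against WT (0.48, adjusted p = 2.73e-09; 0.08 and not called on uncentred TPM).

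For the 3 channel genes with the widest range of group means, the genes most like them across the 9 libraries were found among 9155 genes with a mean of at least 10 CPM. For Kcna3 these were Tbc1d4 (Pearson r of log2 CPM 0.996), Gyg (0.995) and Fyn (0.995), for Mcu they were Dedd2 (0.998), Csf2rb (0.997) and Actn1 (0.997), and for Kcnn4 they were Grasp (0.990), Il2rg (0.983) and Ftsj3 (0.979). The libraries fall into 3 tight groups, so each r mostly restates the order and spacing of 3 group means: 213 genes were above 0.95 for Kcna3, 429 for Mcu and 51 for Kcnn4. Among the members themselves, r over the same libraries was highest for Kcnn4 and Mcu (0.954), then Kcna3 and Kcnk13 (0.951), then Kcnk6 and Trpm2 (0.908).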

How the data were processed

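Per the labels, poly-A RNA of 9 libraries was read on a DNBSEQ instrument as single 50-nt reads, and replicate numbers come from the labels. The submitters' processing notes name HISAT, Bowtie2 and DESeq2, with no version or role, and the build GRCm38.p6. The authors deposited an estimated count per gene and library, with decimals and no scaling between libraries, per the file headers. The authors' deposited FPKM values are scaled to length and library size, and the deposited TPM columns sum to a fixed total. The authors' deposited normalised counts are a signal, the estimated count multiplied by a factor per library, and were not used for results, nor were the authors' group means. Every per-sample column was mapped by name.

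Here the estimated counts were rounded (the design had assumed whole counts) and fitted with the edgeR 4.0.16 quasi-likelihood test in R 4.3.3: TMM scaling, filterByExpr, robust dispersion, all 9 libraries in 1 fit with a mean per group and no replicate block. P-values were adjusted over 14696 tested genes of 18571. The biological coefficient of variation was 3.14%. Deviations of same-numbered libraries from their group means correlated over 0.1 in all 6 pairs with WT (0.135 to 0.196), so the numbers were taken to pair the libraries in comparisons with WT, but not between APP/PS1 and cKO, where the lowest of 3 was 0.0959. Each of the 9 libraries correlated best with its own number. Alternatives used DESeq2 1.42.0 and limma 3.58.1 (voom on counts, trend on log2 of the TPM or FPKM plus 1, or plus 0.1 for FPKM) and length offsets in 10 bins, with lengths inferred from count over FPKM for 99.8% of tested genes.

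The members and the related gene lists were chosen with earlier results of these data known. Named genes are all members, every uniporter partner and LRRC8 subunit, and of each other list the 2 called genes with the highest mean CPM and the called gene with the largest change in each comparison (mean of at least 1 CPM, groups without overlap). For the 3 members with the widest range, the 3 most correlated genes are named too. A gene that the rule names is not reported here, and none was put in its place. Tested on simulated data for APP/PS1 against WT (14633 genes), the edgeR step recovered 72% of genes changed 1.2-fold and 94% of those changed 1.5-fold, with 6.63% false calls. That simulation changed few genes, up or down at random, gave every gene a common dispersion and left the others equal between groups. It cannot give the false call rate of the real comparison, in which 59.0% of tested genes were called.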

Additional observations from a re-analysis of the deposited data

How the results depend on the processing

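Counts of called channel genes moved by over 1.5 times under few alternatives. Asking for at least a 1.5-fold change left 2 in APP/PS1 against WT, 3 in cKO against APP/PS1 and 1 in cKO against WT. Offsets for transcript length left 5 in cKO against APP/PS1, since Kcnk13, Kcnk6, Kcnj2 and Trpm7 then missed the threshold. Library totals, TPM, and FPKM with either pseudocount each gave 8 in cKO against WT. The DESeq2 Wald test called 7, 7 and 4 members, and leaving out single libraries gave 7 to 9, 7 to 9 and 4 to 6. Over all genes DESeq2 called 6998, 6463 and 5303, and an adjusted p of 0.01 left 7254, 6519 and 5479. Of 250 member values in each comparison, 213, 223 and 218 kept their direction and their side of the threshold, 6, 3 and 3 reversed, and the rest crossed the threshold in the same direction.

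Member values that reversed were close to 0, apart from Kcnk13 in APP/PS1 against WT on TPM (-0.20). Kcnj2 in APP/PS1 against WT was 0.0062 with only the 2 groups in the fit, 0.074 with length offsets and 0.074 with these and the replicate block, and ran from -0.064 to 0.017 when single libraries were left out. In cKO against WT, Kcnj2 was -0.084 on TPM, and Kcnk6 was 0.0015 with length offsets and 0.0015 with the block added. Lrrc8a in cKO against APP/PS1 was -0.021 with length offsets, -0.021 with the block added, and ran from -0.013 (without APP/PS1 replicate 3) to 0.093 over single libraries left out.

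Of 1598 values of called related genes 1446 kept direction and side, and 20 reversed, mostly on TPM, which lowers the median of all genes in APP/PS1. In APP/PS1 against WT, TPM gave -0.19 for Clic4, -0.26 for Hvcn1, -0.25 for Letm1, -0.19 for Lrrc8b, -0.29 for Lrrc8d and -0.13 for Micu2. Library totals gave -0.0046 for Hvcn1, -0.014 for Letm1 and -0.043 for Lrrc8d, and FPKM with a pseudocount of 1 and 0.1 gave -0.0053 and -0.0053 for Hvcn1, -0.011 and -0.012 for Letm1, and -0.039 and -0.040 for Lrrc8d. In cKO against APP/PS1, TPM gave 0.017 for Letm1 and 0.032 for Trpv4. In cKO against WT it gave -0.0051 for Kcnab2, -0.052 for Mcur1 and -0.0041 for Trpm3. TPM centred on the median gene, an alternative chosen after seeing the data, reversed none of these values. The cause of the other reversals was not tested.

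Fitting the replicate number as a block gave 9, 9 and 6 called channel genes, the sixth being Kcnj2 in cKO against WT (0.11), and 9319, 8851 and 7934 genes in all against 8670, 8085 and 7010. The block changed no other call of a channel gene and ended no call of a related gene named above. The order of the 3 group means was the same in TPM as in CPM for 8 of the 10 members, all but Kcnk13 and Kcnj2, and the same in FPKM for 10. Kcna3, Kcnn4 and Mcu had the fewest counts of the members, 64 to 277 a library, and the widest SE of the log2 change, 0.08 to 0.13 against 0.03 to 0.05.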

Other observations

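Some channel genes outside the naming rule changed more than most members, and they were chosen after their values were seen. Mcoln3, which encodes a lysosomal cation channel of the mucolipin family, had 1 to 5 counts in the WT libraries, 41 to 43 in APP/PS1 and 1 to 6 in cKO. Its level in APP/PS1 was above that of both other groups (edgeR adjusted p = 1.72e-09 and 1.76e-08), and no fold is given at such low counts. Kcnh2, the ERG potassium channel, averaged 2.34, 9.18 and 6.27 CPM in WT, APP/PS1 and cKO. It was 3.92-fold higher in APP/PS1 than in WT (adjusted p = 1.21e-12) and lower in cKO than in APP/PS1 (log2 change -0.55, adjusted p = 0.000194). Kcne2, a beta subunit that can join ERG and other potassium channels, had the same order of groups at 1.97, 5.66 and 3.55 CPM, with a 2.86-fold rise (adjusted p = 1.18e-08) and then a lower value in cKO (-0.67, adjusted p = 0.000461).

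Kcnj13, the weak inward rectifier Kir7.1 of ion-transporting epithelia, averaged 3.49, 9.34 and 4.44 CPM. It rose 2.67-fold in APP/PS1 against WT (edgeR adjusted p = 1.06e-10) and was lower in cKO than in APP/PS1 (-1.07, adjusted p = 1.40e-08).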
